A study of Homo sapiens with 24 samples.

Results

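The androgen response of LNCaP prostate cancer cells was set against that of VCaP prostate cancer cells. It was measured in the 12 control arrays of the 24 arrays of the series, 3 arrays in each of 4 groups, chosen by their labelled cell line, control RNA interference and treatment. LNCaP-shControl-DHT cells received 10 nM dihydrotestosterone (DHT, the potent natural androgen) for 16 h, and LNCaP-shControl-EtOH cells received ethanol, the vehicle. VCaP-siControl-DHT and VCaP-siControl-EtOH cells were treated in the same way. All 4 groups had passed through control RNA interference 24 h before 2 days without hormone, and the labels describe the arrays of a group as biological replicates. The other 12 arrays hold the same treatments in LNCaP cells carrying shETV1 and in VCaP cells carrying siERG. They served as separate arrays in which the same line difference could be measured. The LNCaP control is named shControl in its titles and siControl in another label field. Cell line and mode of RNA interference go together in this design, so they cannot be told apart in any line difference. The labels name no processing batch. If the arrays of the lines were processed apart, that could not be told apart from the line either. Each line stands for 1 tumour only.

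Androgens such as DHT act on transcription through DNA elements that often lie far from gene starts, where pioneer factors such as FOXA1 open the chromatin. In prostate epithelium they induce secretory proteases, ion and sugar transporters and lipid synthesis, and they lower the expression of other genes, among them genes active in androgen-deprived cells. LNCaP was established from a lymph node metastasis and carries a rearranged ETV1 gene. VCaP was established from a vertebral metastasis and carries a fusion of TMPRSS2 to ERG.

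Expression was read as the deposited intensity of 54675 probe sets on Affymetrix HG-U133 Plus 2.0 arrays. Array medians ran from 42.7 to 44.8 for LNCaP samples and from 47.6 to 53.2 for VCaP samples. Of the probe sets, 605 to 698 read exactly 1 on each LNCaP array and 6 to 13 on each VCaP array. The deposited low values thus differed between the lines. Whether this came from separate processing of the lines was not tested. Between the lines only responses and ranks within an array were compared, apart from the following check of line identity. ERG averaged 7.45 ± 0.18 in LNCaP DHT cells and 10.2 ± 3.7 in LNCaP EtOH cells, against 1188 ± 25 in VCaP DHT cells and 1031 ± 82 in VCaP EtOH cells (SD, n = 3 each), which matches the labelled lines. In the knockdown arms ERG averaged 576 ± 14 in siERG VCaP cells and 1031 ± 82 in control VCaP cells, both under EtOH, and ETV1 averaged 745 ± 29 in shETV1 LNCaP cells and 1149 ± 103 in control LNCaP cells (SD, n = 3 each). In VCaP under EtOH, ETV1 averaged 568 ± 126 in control cells and 987 ± 84.5 in siERG cells (SD, n = 3 each). On this probe set, the brightest of the gene, ETV1 under EtOH was thus higher in LNCaP than in VCaP among control cells but lower in the knockdown arms. On its dimmer probe sets, VCaP EtOH means were 99.45, 114, 88.4 and 99.46 in control cells. In the same order they were 142, 116, 96.6 and 100.3 in siERG cells. Those of shETV1 LNCaP cells under EtOH were 139.8, 116, 89.9 and 84.0, within the SD of the siERG arrays each time. Of the luminal epithelial marker list, 11 of 12 genes on the array passed the filter on low signal. Of the basal list 3 of 8 did, of the neuroendocrine list 4 of 12, and of the fibroblast, endothelial and leukocyte list 7 of 17. KRT5, CHGA, SYP and PTPRC were among those below it. The ratio of 3' to 5' ACTB signal, a sign of RNA integrity, was 2.76 ± 0.14 in LNCaP DHT arrays and 3.11 ± 0.35 in LNCaP EtOH arrays, and 3.50 ± 0.06 in VCaP DHT arrays and 3.31 ± 0.32 in VCaP EtOH arrays (SD, n = 3 each). Exact two-sided permutation tests gave p = 0.2 in LNCaP and p = 0.4 in VCaP. The same ratio for GAPDH was 1.09 ± 0.003 in LNCaP DHT arrays and 1.11 ± 0.025 in LNCaP EtOH arrays, and 1.07 ± 0.008 in VCaP DHT arrays and 1.05 ± 0.013 in VCaP EtOH arrays (SD, n = 3 each). Its exact p was 0.4 in LNCaP and 0.1 in VCaP, the smallest that 3 arrays against 3 can give, with every VCaP DHT array above every VCaP EtOH array. With the ACTB ratio as a covariate ALDOA, PABPC5 and POLE lost the call of the line difference among the 161 genes named by rule, and with the GAPDH ratio ETS1, JUNB and PABPC5 did. These 161 were named mostly for large or clear differences. Over all genes tested, 3929 line differences were called without a covariate, 3468 with the ACTB ratio and 3177 with the GAPDH ratio.

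A gene's response is its mean in DHT cells minus its mean in EtOH cells on the log2(intensity + 16) scale, which understates the change of dim genes. In RNA from a whole culture, a change in the share of cells and a change per cell cannot be told apart. The line difference is the LNCaP response minus the VCaP response, so a positive value means a higher response in LNCaP. A call is an adjusted p below 0.05 in limma with Benjamini-Hochberg adjustment over the 12305 genes that passed the filter in both lines. In LNCaP control cells 2378 genes rose (19.3%) and 2850 fell (23.2%), together 42.5% of the genes tested, and 253 rises (2.06%) and 196 falls (1.59%) reached 1 log2 unit. In VCaP control cells 2430 rose (19.7%) and 3007 fell (24.4%), together 44.2%, and 115 rises (0.935%) and 203 falls (1.65%) reached 1 log2 unit. The line difference was called for 3929 genes, 31.9% of those tested, with 2164 above 0 (17.6%) and 1765 below (14.3%). After quantile normalization within each line the split turned to 1935 above and 2411 below, so which direction holds more genes depends on the scaling. Differences of at least 1 log2 unit were fewer, 242 above 0 (1.97%) and 139 below (1.13%). The median size of a line difference over all genes tested was 0.19, against a median standard error of 0.10.

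Responses in the same direction were the commoner kind among genes called in both lines. Of 3108 such genes, 1230 rose in both lines and 1437 fell in both. The remaining 441 genes, 14.2% of those called in both lines and 3.58% of all genes tested, went opposite ways. In 243 of them expression rose in LNCaP and fell in VCaP (1.97% of the genes tested), and in 198 it fell in LNCaP and rose in VCaP (1.61%). All 441 also passed the test of the line difference. After quantile normalization within each line these counts were 214 and 295. The opposite responses were mostly small: for the 243 genes the median LNCaP response was 0.34 and the median VCaP response -0.33, and for the 198 genes the medians were -0.32 in LNCaP cells and 0.35 in VCaP cells. In 32 of the 243 genes (0.26% of all) and 16 of the 198 (0.13% of all) the response reached 0.5 log2 units in both lines, and all 48 of these were also opposite after quantile normalization. The control arrays of the lines are separate, so the LNCaP and VCaP responses share no array.

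**Figure D1:**
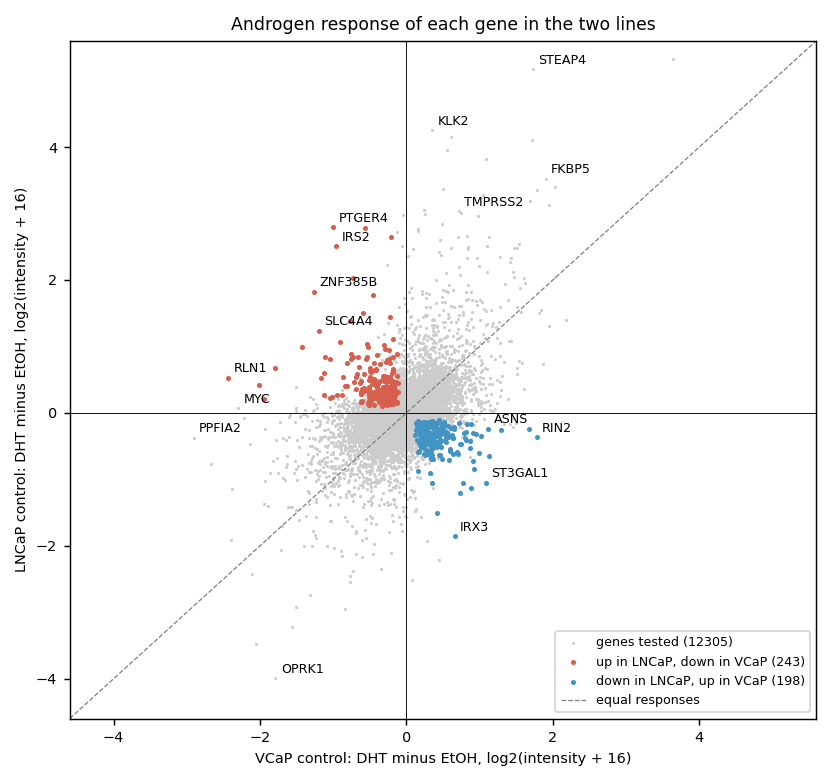
Response to DHT of each of the 12305 genes tested, in VCaP control cells (x axis) and LNCaP control cells (y axis), both as mean DHT minus mean EtOH on the log2(intensity + 16) scale with 3 arrays per group. Red points are the 243 genes that rose in LNCaP and fell in VCaP, blue points the 198 genes that did the reverse, and the dashed line marks equal responses. KLK2 and STEAP4 lie far above the line, and RLN1, MYC and PPFIA2 lie far to the left with LNCaP responses closer to 0.

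Of 32 genes long known as androgen-induced, 28 had a higher response in LNCaP than in VCaP. The neighbouring kallikrein genes KLK2 and KLK3, which encode secreted serine proteases of the prostate (KLK3 is prostate-specific antigen), are the best known of them. Their promoter windows run from 250 bases before to 50 bases after the RefSeq start on GRCh38.p14. They are printed because KLK3 holds an exact copy of the short androgen response motif searched for and KLK2, with the larger line difference, does not. The motif was AGAACA on either strand (TGTTCT on the other), given in capitals. KLK2 lies at chr19:50873189-50873488 and KLK3 at chr19:50854665-50854964, both on the plus strand.
KLK2: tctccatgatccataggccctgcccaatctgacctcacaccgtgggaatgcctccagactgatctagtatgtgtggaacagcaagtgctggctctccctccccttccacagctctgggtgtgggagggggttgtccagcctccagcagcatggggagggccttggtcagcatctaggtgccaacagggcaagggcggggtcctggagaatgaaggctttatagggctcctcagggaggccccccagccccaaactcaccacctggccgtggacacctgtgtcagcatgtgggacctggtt
KLK3: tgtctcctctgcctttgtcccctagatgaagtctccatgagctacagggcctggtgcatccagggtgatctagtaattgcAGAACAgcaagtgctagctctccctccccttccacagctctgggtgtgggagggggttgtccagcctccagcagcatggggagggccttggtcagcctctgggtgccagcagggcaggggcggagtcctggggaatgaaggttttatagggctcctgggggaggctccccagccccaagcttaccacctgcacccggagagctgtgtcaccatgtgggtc
KLK3 held the match 170 bases before the start, and KLK2 held no exact match in this window. Before the shared letters gcaagtgct, where KLK3 holds the match, KLK2 reads ggaaca, which differs only in its first base. The search for exact letters therefore does not show whether KLK2 lacks an androgen response element. Of the 24 genes of the androgen-induced list that were matched to a RefSeq promoter, 3 held a match (12.5%), KLK3, FKBP5 and PMEPA1, against 8.85% of the 10018 promoters of genes tested and 14.9% of all 27305 promoters. A match is only a description of these letters.

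KLK2 had intensities of 4806, 4589.9 and 4761 in LNCaP DHT arrays and 258, 215 and 224 in LNCaP EtOH arrays. In VCaP it had 7379.8, 7044 and 7025 in DHT arrays and 5685, 5546 and 5553 in EtOH arrays. The groups did not overlap in either line, but the LNCaP groups lay far apart and the VCaP groups close together. The responses were 4.26 ± 0.11 in LNCaP, a 19.1-fold rise, and 0.35 ± 0.05 in VCaP, a 1.28-fold rise (SE). The line difference of 3.90 had a 95% confidence interval of 3.64 to 4.17 and a limma adjusted p of 1.25e-14.

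KLK3 stood at 10707, 10518 and 10951 in LNCaP DHT arrays and 2122, 1784 and 1859.5 in LNCaP EtOH arrays, and at 4921, 4563 and 4869 in VCaP DHT arrays and 3161, 3047 and 3181 in VCaP EtOH arrays. Its response was 2.47 ± 0.07 in LNCaP and 0.61 ± 0.06 in VCaP (SE). TMPRSS2, the membrane serine protease whose promoter drives ERG in VCaP, responded by 3.04 ± 0.05 in LNCaP and 0.71 ± 0.06 in VCaP. Its arrays read 6338, 6318 and 5854 under DHT and 728, 796 and 693 under EtOH in LNCaP, against 2778, 2809.7 and 2916 under DHT and 1757, 1737 and 1674 under EtOH in VCaP. FKBP5, a cochaperone of steroid receptors, rose in both lines by larger amounts, 3.52 ± 0.07 in LNCaP and 1.90 ± 0.06 in VCaP. STEAP4, a metalloreductase, had the second largest LNCaP rise among the androgen-induced list, 5.17 ± 0.08, and rose by 1.72 ± 0.06 in VCaP. NDRG1, a stress-responsive gene, showed the contrast in another form, with 6646, 6548 and 6421 in LNCaP DHT arrays and 813, 828 and 789.7 in LNCaP EtOH arrays, against 5703, 5548 and 5367 in VCaP DHT arrays and 4673, 4714 and 4529.6 in VCaP EtOH arrays. The adjusted p of the line difference of these 5 genes ranged from 1.88e-16 for NDRG1 to 8.44e-11 for FKBP5.

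Of the 32 androgen-induced genes tested, 29 rose (90.6%) and 1 fell (3.12%) in LNCaP, beside 19.3% and 23.2% of all genes tested. In VCaP 23 rose (71.9%) and 1 fell (3.12%), beside 19.7% and 24.4%. The line difference was above 0 in 28 of them and below 0 in none, against 17.6% and 14.3% of all genes tested. After quantile normalization 3 of the list (within each line) or 4 (over all arrays) lay below 0. Their median response was 2.22 in LNCaP cells and 0.56 in VCaP cells, where the medians over all genes tested were -0.01 in LNCaP cells and -0.02 in VCaP cells. The 4 genes without a called difference were STEAP1, STEAP2, TSC22D3 and AZGP1. AZGP1, a secreted zinc-binding glycoprotein, rose in both lines, with a line difference of -0.32 ± 0.16 (SE). The gene that fell in VCaP was TRPM8, a cold-sensing cation channel of prostate epithelium. It read 543, 511 and 498 in LNCaP DHT arrays and 67.5, 60.6 and 80.1 in LNCaP EtOH arrays, and 2347, 2110.5 and 2230.0 in VCaP DHT arrays and 2577, 2645 and 2517 in VCaP EtOH arrays. Its LNCaP response was 2.65 ± 0.10 and its VCaP response -0.21 ± 0.06 (adjusted p = 0.0132 in VCaP).

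The highest line differences after KLK2 also included genes outside this list. LINC00844, a long noncoding RNA gene, rose by 4.15 in LNCaP and 0.61 in VCaP, CCDC141 by 3.96 in LNCaP and 0.55 in VCaP, and OTULINL by 3.37 in LNCaP and 0.49 in VCaP. The lowest were led by CSMD1, a large membrane protein with sushi domains, with -2.22 ± 0.05 in LNCaP and 0.44 ± 0.24 in VCaP (SE); its VCaP response was not called. IL1RN, the interleukin-1 receptor antagonist, fell by 2.94 in LNCaP and 0.84 in VCaP, and MAN1A1, a mannosidase of the Golgi, fell by 2.35 in LNCaP and 0.34 in VCaP. GPR63, an orphan receptor, fell by 1.93 in LNCaP and responded by 0.28 in VCaP.

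The position of these genes before androgen also differed between the lines. Genes were ranked by mean intensity among the 12305 genes within the EtOH arrays of the knockdown arms. These arrays do not enter the control group means, but they do enter the filter, the choice of probe set and the estimate of the spread. All 28 androgen-induced genes with a larger response in LNCaP ranked lower in LNCaP than in VCaP, and their median rank was the 47.0th percentile in LNCaP and the 73.7th in VCaP. Among the 242 genes with a line difference of at least 1 above 0, 226 (93.4%) ranked lower in LNCaP before androgen. Among the 139 genes with a difference of at least 1 below 0, 24 (17.3%) did. Over all genes tested the share was 41.2%. The part of this starting rank in the line difference was not tested.

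Androgen-repressed genes mostly fell in both lines. Of 15 tested, 14 fell (93.3%) and none rose in LNCaP, where 23.2% of all genes tested fell and 19.3% rose. In VCaP 11 fell (73.3%) and 2 rose (13.3%), where 24.4% of all genes fell and 19.7% rose. The list's median stood at -1.06 for LNCaP and -0.996 for VCaP, and the line difference was above 0 in 4 (26.7%) and below 0 in 5 (33.3%), beside 17.6% and 14.3% of all genes tested. OPRK1, the kappa opioid receptor, read 252, 243 and 259 in LNCaP DHT arrays and 4215, 4317 and 4221 in LNCaP EtOH arrays. In VCaP it read 1058, 1211 and 1215 in DHT arrays and 4256, 4013 and 3889.7 in EtOH arrays. It fell by 3.996 ± 0.08 in LNCaP and by 1.79 ± 0.07 in VCaP (SE, difference -2.21, adjusted p = 4.68e-12). PPFIA2, a liprin scaffold protein of cell contacts, was the reverse case: it fell by 0.37 ± 0.06 in LNCaP and by 2.91 ± 0.08 in VCaP. Its arrays read 2179.7, 2373 and 2273 under DHT and 2884, 3084 and 2895 under EtOH in LNCaP, against 492, 459.6 and 496 under DHT and 3624, 3996 and 3547 under EtOH in VCaP. FOLH1, prostate-specific membrane antigen, fell by 0.47 in LNCaP and 2.14 in VCaP, and ACKR3, an atypical chemokine receptor, fell by 2.46 in LNCaP and 0.77 in VCaP. The 2 that rose in VCaP were PEG3 and UGT2B28, described with the opposite genes.

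Genes that rose in LNCaP and fell in VCaP included receptors, adaptors and transporters. PTGER4, the prostaglandin E receptor EP4, read 692, 719 and 717 in LNCaP DHT arrays and 92.4, 89.6 and 84.4 in LNCaP EtOH arrays. It read 354, 328 and 361 in VCaP DHT arrays and 708, 738 and 687 in VCaP EtOH arrays. The arrays of DHT and EtOH were apart in both lines and in opposite order. The response was 2.79 ± 0.10 in LNCaP and -1.001 ± 0.05 in VCaP, a line difference of 3.79 (95% interval 3.54 to 4.05, adjusted p = 1.21e-14). IRS2, an adaptor of the insulin and IGF receptors, read 1297, 1190.1 and 1277 in LNCaP DHT arrays and 224, 197 and 199.9 in LNCaP EtOH arrays, against 876, 933 and 1103 in VCaP DHT arrays and 2102, 1901 and 1696 in VCaP EtOH arrays. Its line difference was 3.47 ± 0.14 (SE, adjusted p = 3.07e-13). ZNF385B, a zinc finger protein, read 244, 233 and 240.3 in LNCaP DHT arrays and 55.1, 55.2 and 58.4 in LNCaP EtOH arrays, against 707, 699.9 and 715 in VCaP DHT arrays and 1684, 1775 and 1711 in VCaP EtOH arrays. SLC4A4, a sodium bicarbonate cotransporter, read 837, 882 and 777 in LNCaP DHT arrays and 359, 331 and 340.4 in LNCaP EtOH arrays, against 236, 239 and 236 in VCaP DHT arrays and 557, 598 and 534 in VCaP EtOH arrays. ZNF385B, SLC4A4 and PTGER4 were the 3 genes of this direction to reach 1 log2 unit in both lines, and IRS2 responded by 2.51 in LNCaP and -0.96 in VCaP.

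Further genes of this direction moved by at least 0.5 log2 units in each line. CSRP2, a LIM-domain protein of the actin cytoskeleton, responded by 0.996 ± 0.07 in LNCaP and -1.42 ± 0.05 in VCaP (SE). Its LNCaP EtOH arrays read only 14.4, 16.1 and 18.3, near the pseudocount and below the medians of those arrays. Among LNCaP control arrays CSRP2 could thus pass the filter only under DHT, where it was higher. RLN1, a gene of the relaxin family, read 6595, 6967 and 6508 in LNCaP DHT arrays and 4646, 5037 and 4259.9 in LNCaP EtOH arrays, against 953, 982 and 958 in VCaP DHT arrays and 5380.2, 5118 and 5403 in VCaP EtOH arrays. Its small LNCaP rise of 0.53 ± 0.06 stood against a VCaP fall of 2.44 ± 0.06, on a probe set that may read related family members. ST6GALNAC1, a sialyltransferase that makes the sialyl-Tn glycan, responded by 2.78 in LNCaP and -0.56 in VCaP. SLC2A12, a glucose transporter, responded by 0.85 in LNCaP and -1.11 in VCaP. FAM111B, a nuclear protease, responded by 1.07 and GRIN3A, a glutamate receptor subunit, by 0.89 in LNCaP. In VCaP FAM111B responded by -0.90 and GRIN3A by -0.76. DIPK2A, COTL1, PALS2 and POTEM completed the 12 genes with the largest smaller response, with line differences of 2.15 for DIPK2A, 1.56 for COTL1, 1.56 for PALS2 and 1.87 for POTEM, whose family members are near-identical and may share signal.

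**Figure D2:**
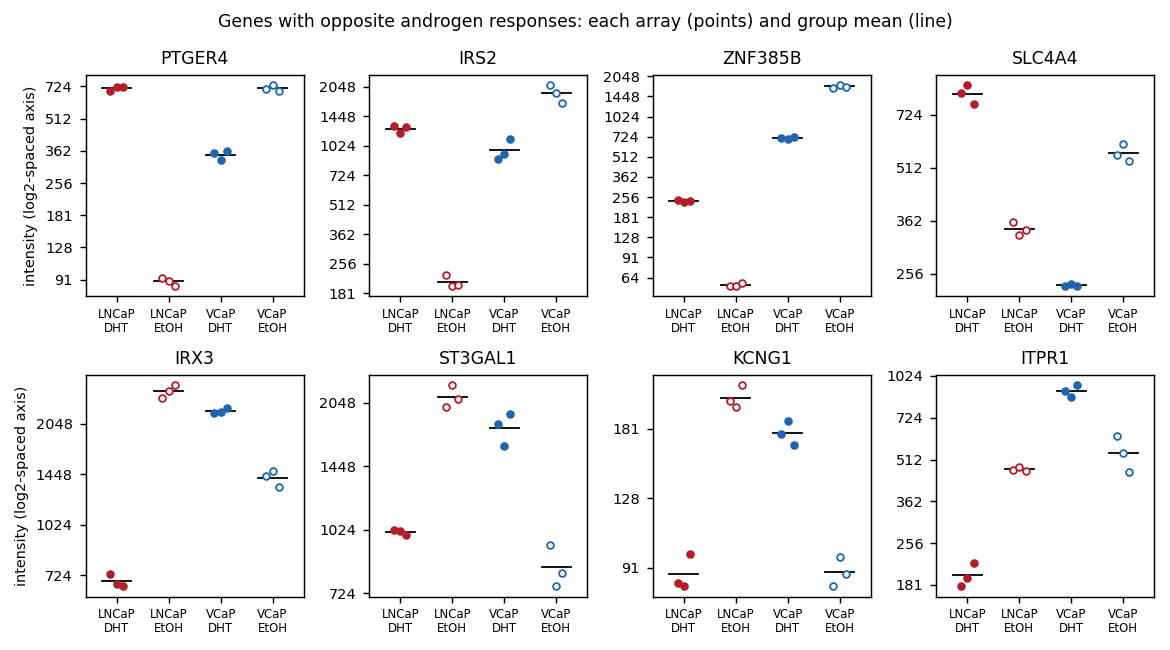
Intensity of 8 genes with opposite responses in each control array (log2-spaced axes), with DHT arrays as filled and EtOH arrays as open points, LNCaP in red, VCaP in blue, and the group mean of 3 arrays as a line. PTGER4, IRS2, ZNF385B and SLC4A4 are higher under DHT in LNCaP and lower under DHT in VCaP, and IRX3, ST3GAL1, KCNG1 and ITPR1 show the reverse order with no overlap between DHT and EtOH arrays of a line.

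The reverse direction, down in LNCaP and up in VCaP, held patterning genes, a channel subunit and calcium and sialic acid genes. IRX3, an Iroquois homeobox factor, read 730.3, 681 and 670.2 in LNCaP DHT arrays and 2439.7, 2558 and 2674 in LNCaP EtOH arrays. It read 2207, 2221 and 2275 in VCaP DHT arrays and 1430.4, 1481 and 1326 in VCaP EtOH arrays. The responses were -1.86 ± 0.05 in LNCaP and 0.66 ± 0.05 in VCaP, a line difference of -2.52 (SE, adjusted p = 2.01e-15). IRX5, its neighbour in the same gene cluster, moved in the same 2 directions, -1.51 ± 0.06 in LNCaP and 0.41 ± 0.11 in VCaP. ST3GAL1, a sialyltransferase that caps O-glycans, was the only gene of this direction to reach 1 log2 unit in both lines. It read 1025, 1018 and 996 in LNCaP DHT arrays and 1999, 2258 and 2094 in LNCaP EtOH arrays, against 1823, 1621 and 1926 in VCaP DHT arrays and 945, 752 and 808 in VCaP EtOH arrays. ITPR1, the inositol trisphosphate receptor that releases calcium from the endoplasmic reticulum, read 179, 191 and 217 in LNCaP DHT arrays and 471, 481 and 465 in LNCaP EtOH arrays, against 907, 859 and 950.5 in VCaP DHT arrays and 624, 540.5 and 463 in VCaP EtOH arrays. ST3GAL1 and ST6GALNAC1, both sialyltransferases, thus lay in opposite corners of the comparison.

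KCNG1, a modulatory potassium channel subunit, responded by -1.13 ± 0.07 in LNCaP and 0.88 ± 0.10 in VCaP (SE). WNK3, a kinase that regulates ion cotransport, responded by -0.64 in LNCaP and 1.12 in VCaP, though 1 of its 3 probe sets above the filter had a line difference of the other sign, 0.11. PEG3, a paternally expressed zinc finger gene with high signal, read 7699.6, 7541 and 8206 in LNCaP DHT arrays and 12253, 11941 and 11957 in LNCaP EtOH arrays, against 6840.0, 8656 and 7706 in VCaP DHT arrays and 4900.0, 4587 and 4727 in VCaP EtOH arrays. SESN2, a stress-induced inhibitor of growth signalling, responded by -0.62 ± 0.06 in LNCaP and 0.64 ± 0.11 in VCaP. UGT2B28, of an enzyme family that glucuronidates androgens, responded by -1.06 in LNCaP and 0.77 in VCaP on a probe set that may read related family members. RIN2, a regulator of Rab proteins, fell by 0.36 ± 0.09 in LNCaP and rose by 1.78 ± 0.05 in VCaP. RGCC, HTR2C and NKD2 rested on dim or scattered arrays: RGCC read 22.0, 13.7 and 40.9 in LNCaP DHT arrays and 50.8, 67.3 and 50.1 in LNCaP EtOH arrays, and the NKD2 arrays of VCaP overlapped between DHT and EtOH. The LNCaP DHT values of RGCC lay below the medians of those arrays, 42.73 to 43.39. Among LNCaP control arrays RGCC was thus above the filter only under EtOH, where it is higher.

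Other genes responded in 1 line while the size of the response in the other was under 0.2 log2 units. AKAP12, a scaffold for kinase A and kinase C, read 452, 432 and 395 in LNCaP DHT arrays and 41.3, 43.3 and 35.1 in LNCaP EtOH arrays, against 646, 558 and 628 in VCaP DHT arrays and 663, 648 and 577 in VCaP EtOH arrays. Its LNCaP control EtOH values lay below the medians of those arrays, 44.55 to 44.78. Among LNCaP control arrays it was thus above the filter only under DHT, where it is high. SLC45A3, prostein, read 2859.7, 3079 and 2950.0 in LNCaP DHT arrays and 547, 515 and 504 in LNCaP EtOH arrays, against 1285, 1285 and 1324 in VCaP DHT arrays and 1325, 1163 and 1179 in VCaP EtOH arrays. The 6 largest such rises in LNCaP were completed by SLC15A2, a peptide transporter, with 2.76, ANGPT2, an endothelial ligand, with 2.74, PRAG1, a pseudokinase, with 2.72, and KLF5, an epithelial transcription factor, with 2.51. The VCaP responses of these 6 genes lay between -0.14 for PRAG1 and 0.16 for ANGPT2, and none was called. LNCaP falls of this kind were led by TMEM140 with -2.52 ± 0.08 and included the zinc finger gene MYNN with -1.57 ± 0.04 (SE). MYNN read 738, 709 and 744 in LNCaP DHT arrays and 2212, 2206 and 2197 in LNCaP EtOH arrays, against 1447, 1434 and 1463 in VCaP DHT arrays and 1431, 1443 and 1475 in VCaP EtOH arrays.

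The largest VCaP change without a counterpart of 0.2 in LNCaP was the fall of MYC, the transcription factor that drives growth and ribosome synthesis. It read 2437, 2429 and 2240.0 in LNCaP DHT arrays and 2182, 2589.6 and 2009 in LNCaP EtOH arrays, which overlap. In VCaP it read 1413, 1623 and 1439.8 in DHT arrays and 7454, 7434 and 7309 in EtOH arrays, which are far apart. The LNCaP response was 0.07 ± 0.08 (adjusted p = 0.516), and in VCaP MYC fell by 2.30 ± 0.11, or 4.93-fold (SE, line difference adjusted p = 1.49e-10). CRISPLD1 followed with -0.08 in LNCaP and -2.22 in VCaP, and MBLAC2, RMI2, a subunit of a DNA repair helicase complex, TAF4B, a TFIID subunit, and FAM117B fell in VCaP by 1.52 (FAM117B) to 1.72 (MBLAC2). VCaP rises of this kind were led by S100P, a calcium-binding protein, with 1.49 ± 0.11 in VCaP against -0.15 ± 0.07 in LNCaP. HS6ST1, a heparan sulfate sulfotransferase, CHAC1, MICA, a stress ligand for natural killer cells, SLC1A5, a glutamine transporter, and EIF4EBP1, a repressor of cap-dependent translation, rose in VCaP by 1.18 (EIF4EBP1) to 1.46 (HS6ST1). Of these, CHAC1, SLC1A5 and EIF4EBP1 are known targets of the transcription factor ATF4.

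Genes of amino acid supply and of the ATF4 programme mostly rose in VCaP and not in LNCaP. ATF4 is the factor made when translation is checked by amino acid shortage or endoplasmic reticulum stress, and it acts at composite elements with C/EBP partners. Of 23 genes of this list, 6 rose (26.1%) and 9 fell (39.1%) in LNCaP, beside 19.3% and 23.2% of all genes tested. In VCaP 20 rose (87%) and 1 fell (4.35%), beside 19.7% and 24.4%. The line difference was below 0 in 19 (82.6%, against 14.3% of all genes tested) and above 0 in 4 (17.4%, against 17.6%). The list's median stood at -0.04 for LNCaP and 0.57 for VCaP. In 8 genes the responses were opposite, down in LNCaP and up in VCaP, where 1.61% of all genes were: ASNS, PSAT1, PHGDH, SESN2, DDIT4, SLC3A2, SLC7A11 and NUPR1. Promoter windows of ASNS and CHAC1, which have large differences, are printed because both hold the element searched, TGATGNAA on either strand (TTNCATCA on the other), in capitals. ASNS lies at chr7:97872359-97872658 on the minus strand and CHAC1 at chr15:40953221-40953520 on the plus strand (RefSeq, GRCh38.p14, printed 5' to 3' of the gene).
ASNS: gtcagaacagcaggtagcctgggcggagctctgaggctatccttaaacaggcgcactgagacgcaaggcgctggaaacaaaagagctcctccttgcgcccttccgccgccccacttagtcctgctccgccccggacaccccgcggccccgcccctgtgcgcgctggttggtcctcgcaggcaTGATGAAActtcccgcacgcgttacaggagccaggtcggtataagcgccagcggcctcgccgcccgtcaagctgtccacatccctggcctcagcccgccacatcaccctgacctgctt
CHAC1: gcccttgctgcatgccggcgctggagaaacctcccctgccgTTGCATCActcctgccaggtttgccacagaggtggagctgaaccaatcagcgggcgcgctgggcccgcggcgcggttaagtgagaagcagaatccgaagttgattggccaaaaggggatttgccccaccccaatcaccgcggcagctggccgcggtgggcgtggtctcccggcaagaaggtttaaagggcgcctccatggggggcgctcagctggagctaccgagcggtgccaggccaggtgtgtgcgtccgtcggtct
The match began 68 bases before the start in ASNS and 209 bases before it in CHAC1, where it reads on the opposite strand. Of the 19 list genes matched to a RefSeq promoter, 5 held such a match (26.3%), ASNS, ATF3, CHAC1, SLC38A1 and SLC3A2, against 1.79% of the 10018 promoters of genes tested and 3.67% of all promoters. The list was drawn up from known targets of this factor, so the share describes the list. Among promoters of the genes with opposite responses, 2.96% of the genes up in LNCaP and down in VCaP and 2.65% of those in the reverse direction held it.

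ASNS, asparagine synthetase, read 2920.4, 3028 and 2846 in LNCaP DHT arrays and 3425, 3543 and 3424 in LNCaP EtOH arrays, against 3509, 3605 and 3724 in VCaP DHT arrays and 1596, 1699 and 1680.5 in VCaP EtOH arrays. The DHT arrays were the lower ones in LNCaP and the higher ones in VCaP, with no overlap. The responses were -0.24 ± 0.05 in LNCaP and 1.12 ± 0.06 in VCaP (SE, line difference -1.36, adjusted p = 1.81e-11). PSAT1, an enzyme of serine synthesis, read 3924, 3519 and 3561 in LNCaP DHT arrays and 4668, 4920.3 and 4183 in LNCaP EtOH arrays, against 4643, 4139 and 4547 in VCaP DHT arrays and 2309, 2275 and 2267 in VCaP EtOH arrays. SLC7A11, the cystine transporter, responded by -0.30 ± 0.04 in LNCaP and 0.91 ± 0.10 in VCaP. CHAC1, which degrades glutathione, read 224, 224 and 195 in LNCaP DHT arrays and 234, 268 and 229 in LNCaP EtOH arrays, against 244, 224 and 218 in VCaP DHT arrays and 60.2, 99.0 and 71.8 in VCaP EtOH arrays. The transporters SLC1A4 and SLC1A5 rose by 1.17 and 1.23 in VCaP, and their LNCaP responses of 0.03 and 0.15 were not called. DDIT3, a stress factor kept in the endoplasmic reticulum list, also fell in LNCaP, by 0.30 ± 0.06, and rose in VCaP, by 0.78 ± 0.07. ATF4 mRNA itself responded by -0.02 ± 0.04 in LNCaP and 0.21 ± 0.07 in VCaP.

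The 4 list genes with a higher response in LNCaP were SLC38A4, SLC43A1, SLC38A2 and VLDLR. SLC38A4, a neutral amino acid transporter, responded by 3.82 in LNCaP and 1.09 in VCaP, and SLC43A1, a leucine transporter, by 1.12 in LNCaP and 0.69 in VCaP. VLDLR, a lipoprotein receptor, was opposite the other way, with 1.44 ± 0.08 in LNCaP and -0.23 ± 0.04 in VCaP (SE).

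**Figure D3:**
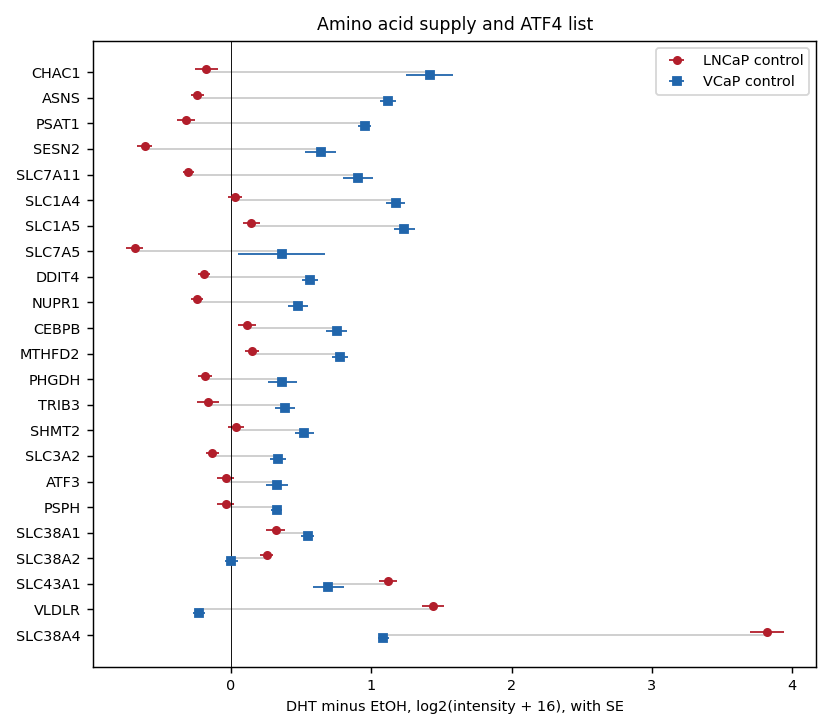
Responses to DHT (mean DHT minus mean EtOH, log2(intensity + 16), with SE, 3 arrays per group) of the 23 genes of the amino acid supply and ATF4 list in LNCaP control cells (red circles) and VCaP control cells (blue squares). Blue squares lie to the right of red circles in 19 genes, and in SLC38A2, SLC43A1, VLDLR and SLC38A4 the red circle lies to the right.

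Of 37 DNA replication genes, 6 rose (16.2%) and 7 fell (18.9%) in LNCaP, where 19.3% and 23.2% of all genes tested did. In VCaP 3 rose (8.11%) and 21 fell (56.8%), where 19.7% and 24.4% of all genes tested did. The mitosis and ribosome counts below are to be read beside the same shares. The line difference was above 0 in 18 (48.6%) and below 0 in 3 (8.11%), beside 17.6% and 14.3% of all genes tested, with a median of 0.23 against 0.01 over all genes. Of the helicase subunits, MCM5 read 429, 398 and 418 in LNCaP DHT arrays and 444, 387 and 385 in LNCaP EtOH arrays, against 415, 414 and 471 in VCaP DHT arrays and 828, 848 and 817 in VCaP EtOH arrays. MCM2 responded by -0.20 ± 0.08 in LNCaP and -0.98 ± 0.08 in VCaP, and MCM3 by 0.14 ± 0.08 in LNCaP and -0.71 ± 0.08 in VCaP (SE). CCNE2, a cyclin of the entry into S phase, went further in LNCaP, where it fell by 0.83 against 0.39 in VCaP. CDC6, the helicase loader, rose by 0.75 in LNCaP and responded by 0.16 in VCaP (adjusted p = 0.121). Of 34 mitosis genes, 11 fell in LNCaP and 12 in VCaP, none rose in either line, and the line difference was above 0 in 8 (23.5%, beside 17.6% of all genes tested) and below 0 in none. After quantile normalization the mitosis counts were 1 above and 1 below (within each line) or 4 above and 1 below (over all arrays). In the list of ribosome biogenesis and MYC, 14 rose and 1 fell in LNCaP while 6 rose and 8 fell in VCaP, and the difference was above 0 in 12 of 30 (40.0%) and below 0 in 2 (6.67%). FBL, a nucleolar methyltransferase, fell by 0.60 in VCaP with a LNCaP response of 0.03, and ODC1, the polyamine enzyme and a textbook MYC target, rose further in VCaP, by 1.51 against 0.68 in LNCaP.

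Of 25 interferon-stimulated genes, 3 rose (12%) and 13 fell (52%) in LNCaP, beside 19.3% and 23.2% of all genes tested. In VCaP 4 rose (16%) and 1 fell (4%), beside 19.7% and 24.4%. The line difference was called in 10, above 0 in 2 of 25 (beside 17.6% of all genes tested) and below 0 in 8 (32.0%, beside 14.3%). IFIH1, a sensor of double-stranded RNA, read 93.1, 92.5 and 92.7 in LNCaP DHT arrays and 161, 159 and 158 in LNCaP EtOH arrays, against 308, 273 and 329 in VCaP DHT arrays and 221, 326 and 244 in VCaP EtOH arrays, and the VCaP groups overlapped. IFI35 fell by 0.42 in LNCaP and responded by 0.26 in VCaP (adjusted p = 0.0717), while the chemokine gene CXCL10 responded by 0.03 in LNCaP and rose by 0.79 in VCaP. HERC5, the ligase for ISG15, went against the list, with a rise of 0.79 ± 0.05 in LNCaP and a response of -0.06 ± 0.07 in VCaP (SE). ISG15, MX1 and IFIT1 fell in LNCaP without a called line difference, and the standard error of the line difference was 0.41 for MX1, 0.57 for IFIT1 and 0.33 for ISG15.

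Signalling lists held called differences in both directions, and their shares below are to be read beside the 17.6% above 0 and 14.3% below 0 of all genes tested. In the insulin and IGF list both insulin receptor substrates were opposite: IRS1 responded by 0.49 ± 0.09 in LNCaP and -0.62 ± 0.09 in VCaP, beside the larger contrast of IRS2 above. IGF1R, the IGF receptor, rose by 1.48 in LNCaP and 0.29 in VCaP. INPP4B, a phosphoinositide phosphatase, rose by 1.73 ± 0.07 in LNCaP and responded by 0.08 ± 0.06 in VCaP (SE). The PI3-kinase regulatory subunit PIK3R1 fell by 0.53 in LNCaP and responded by 0.11 in VCaP. Over the list the difference was above 0 in 6 of 23 (26.1%) and below 0 in 5 (21.7%), and the sign of its near-zero median changed with quantile normalization. Among steroid receptors and partners the difference was above 0 in 3 of 22 (13.6%) and below 0 in 7 (31.8%). NR3C1, the glucocorticoid receptor, fell by 1.11 ± 0.09 in LNCaP and responded by -0.10 ± 0.05 in VCaP. CITED2, a coactivator-binding protein, rose further in VCaP, by 1.16 against 0.44 in LNCaP. GRHL2, an epithelial transcription factor, rose by 0.76 in LNCaP and responded by -0.03 in VCaP, and FOXA1 responded by 0.06 in LNCaP and 0.09 in VCaP, neither called.

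Of the ETS factor list the difference was above 0 in 6 of 18 (33.3%, beside 17.6% of all genes tested) and below 0 in 5 (27.8%, beside 14.3%). ELK4 rose by 1.11 in LNCaP and fell by 0.19 in VCaP, and SPDEF, the prostate-derived ETS factor, rose by 2.12 in LNCaP and 1.10 in VCaP, with probe sets that differed in the sign of the line difference. ETV6 fell by 0.28 in LNCaP and rose by 0.54 in VCaP. ETV1 itself had no called line difference (0.66 ± 0.42, adjusted p = 0.263, 95% interval -0.23 to 1.55), and its VCaP arrays were scattered. ERG was below the filter in LNCaP and was not tested. In the MAPK feedback list, DUSP1, a MAP kinase phosphatase, fell by 0.16 in LNCaP and rose by 0.72 in VCaP, whereas DUSP4 rose by 1.15 ± 0.10 in LNCaP and responded by -0.39 ± 0.20 in VCaP (SE). Of 24 genes there, the difference was above 0 in 8 (33.3%) and below 0 in 5 (20.8%), a count below 0 that was 8 after quantile normalization over all arrays. In the p53 target list, CDKN1A, the cell cycle inhibitor p21, fell by 0.38 ± 0.04 in LNCaP and rose by 0.38 ± 0.07 in VCaP, and the list held 4 differences above 0 (19.0%) and 7 below (33.3%) among 21 genes. In the Wnt and TGF-beta list, with 6 above (25.0%) and 9 below (37.5%) of 24, PMEPA1, an inhibitor of TGF-beta signalling, rose by 1.82 in LNCaP and responded by 0.04 in VCaP. FZD4, a Wnt receptor, fell by 1.16 in LNCaP and responded by 0.06 in VCaP.

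Metabolic lists, too, held called differences in both directions, beside the 17.6% above 0 and 14.3% below 0 of all genes tested. Their rises and falls within a line are to be read beside 19.3% and 23.2% of all genes in LNCaP and 19.7% and 24.4% in VCaP. Of 20 cholesterol genes, 14 rose in LNCaP and 13 in VCaP, 2 fell in each, and the line difference was above 0 in 4 (20.0%) and below 0 in 4 (20.0%). SCAP, which escorts the sterol regulator SREBP, rose by 0.98 ± 0.06 in LNCaP and responded by 0.05 ± 0.08 in VCaP (SE), while INSIG2, which retains it, fell by 1.11 in LNCaP and 0.18 in VCaP. Of 28 genes of endoplasmic reticulum folding, 22 rose and 1 fell in LNCaP, and 26 rose and none fell in VCaP, with medians of 0.44 in LNCaP and 0.67 in VCaP. HSPA5, its main chaperone, rose by 0.44 in LNCaP and 0.54 in VCaP, with a line difference of -0.10 ± 0.06. The difference of this list was above 0 in 4 (14.3%) and below 0 in 8 (28.6%), and below 0 in 14 (within each line) or 15 (over all arrays) after quantile normalization. Of 18 fatty acid genes the difference was above 0 in 2 (11.1%) and below 0 in 8 (44.4%). FASN, fatty acid synthase, rose by 1.08 in LNCaP and 1.41 in VCaP, and ELOVL7, a fatty acid elongase, rose by 1.79 in LNCaP and 0.21 in VCaP. Of 16 androgen metabolism genes it was above 0 in 5 (31.2%) and below 0 in 3 (18.8%), and HSD17B4, a peroxisomal dehydrogenase, was opposite, with 0.37 in LNCaP and -0.26 in VCaP. Of 27 glucose genes it was above 0 in 8 (29.6%) and below 0 in 5 (18.5%), or 8 and 8 after either quantile normalization, and SLC2A3, a glucose transporter, rose by 2.66 in LNCaP and 0.82 in VCaP.

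**Figure D4:**
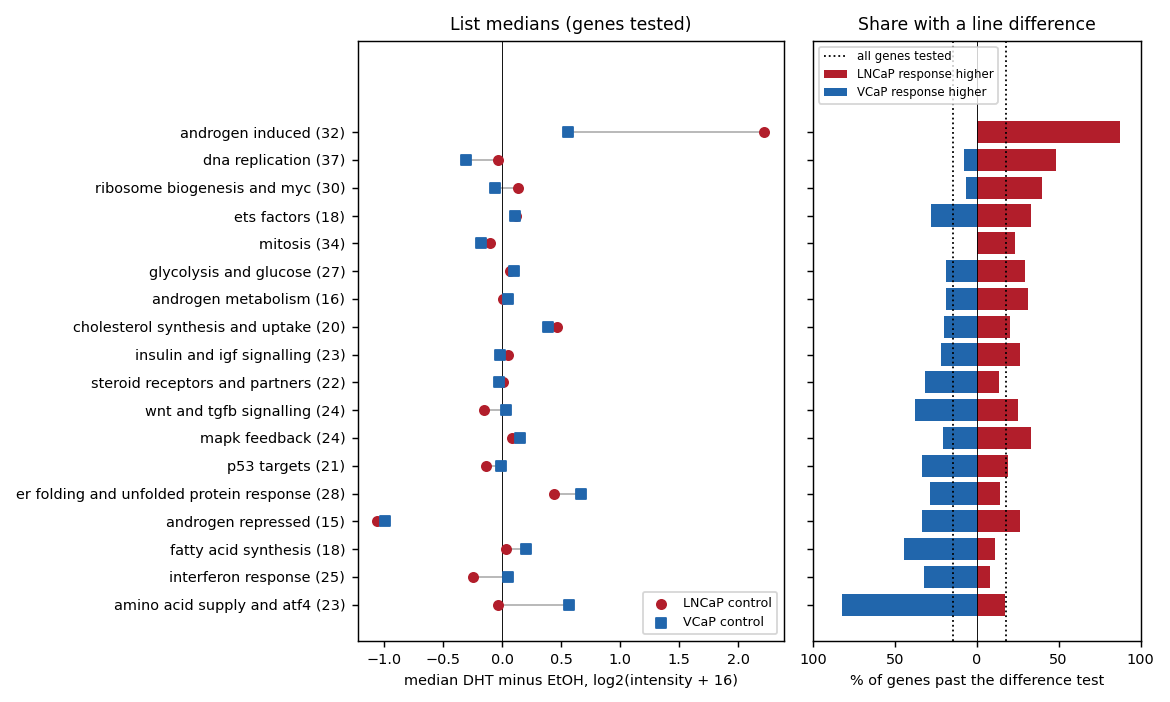
Left, median response to DHT of each gene list (genes tested in brackets) in LNCaP control cells (red circles) and VCaP control cells (blue squares), on the log2(intensity + 16) scale. Right, the share of each list past the line difference test, to the right for a higher response in LNCaP and to the left for a higher response in VCaP, with dotted lines at the 17.6% and 14.3% of all genes tested. The androgen induced list lies furthest to the LNCaP side and the amino acid list furthest to the VCaP side.

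The line difference was then read in the knockdown arrays, which carry shETV1 in LNCaP and siERG in VCaP. Its group means share no array with those of the control comparison. Both differences came from the same fit, with a shared estimate of the spread of each gene. The control and knockdown responses within a line shared a fit in the same way. The overlaps of calls below are therefore not between independent tests. In the knockdown arrays 3894 genes were called (31.6%), with 2270 above 0 (18.4%) and 1624 below (13.2%). After quantile normalization within each line these were 1951 and 2366. A total of 2751 genes were called in both comparisons with the same sign, 70.0% of the control calls and 70.6% of the knockdown calls, and 7 with opposite signs. Of the 381 genes with a control difference of at least 1 log2 unit, 353 were called with the same sign. Of the 243 genes up in LNCaP and down in VCaP, 230 had the same pair of signs in the knockdown cells and 159 were called in both lines there, where 2.27% of all genes tested were opposite in that way. Of the 198 genes of the reverse direction, 180 had the same signs and 111 were called, against 1.47% of all genes. None of the 441 was called with the reverse pair of signs. Among the 48 opposite genes that reached 0.5 log2 units in both lines, 45 kept both signs and 38 were called.

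PTGER4 had a line difference of 4.14 in the knockdown cells and 3.79 in control cells, and IRS2 had 3.37 in the knockdown cells and 3.47 in control cells. IRX3 had -2.31 in the knockdown cells and -2.52 in control cells. ST3GAL1 had -1.21 in the knockdown cells and -2.14 in control cells, and its VCaP response was 0.12 in siERG cells and 1.09 in control cells. MYC fell by 1.29 in siERG VCaP cells and by 2.30 in control VCaP cells, and its line difference was 1.43 in the knockdown cells. The difference of KLK2 was 5.39 in the knockdown cells and 3.90 in control cells. RGCC and HTR2C were not called in the knockdown cells, with -0.24 (adjusted p = 0.504) for RGCC and -0.33 (adjusted p = 0.568) for HTR2C. Whether the differences themselves changed between control and knockdown cells was not tested. List counts of the knockdown difference are to be read beside 18.4% above 0 and 13.2% below 0 of all genes tested. The amino acid list had 3 above and 18 below of 23 genes. The androgen induced list had 28 above and 2 below of 32, where none lay below in control cells. DNA replication had 19 above and 2 below of 37, and the interferon list had 2 above and 7 below of 25. The ribosome biogenesis and MYC list had 6 above and 3 below in the knockdown cells, where it had 12 and 2 in control cells. The endoplasmic reticulum list had 3 above and 15 below, where it had 4 and 8 in control cells, and androgen metabolism had 2 and 2, where it had 5 and 3.

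**Figure D5:**
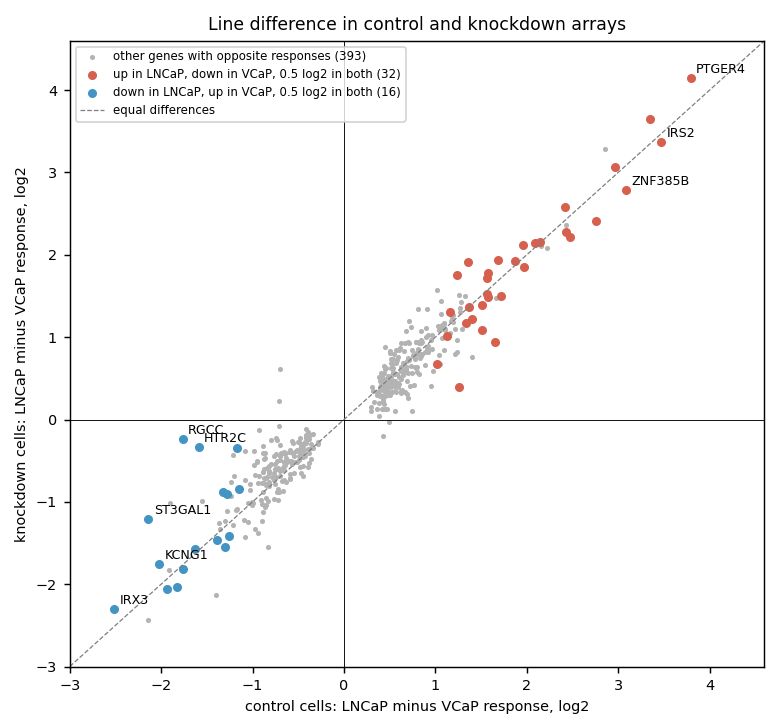
LNCaP response minus VCaP response (log2) of the 441 genes with opposite responses, in control cells (x axis) and in the shETV1 LNCaP and siERG VCaP cells (y axis), each from 3 arrays per group. Coloured points are the 48 genes that reached 0.5 log2 units in both control lines, red for up in LNCaP and down in VCaP (32) and blue for the reverse (16). Most points lie near the dashed line of equal differences, and RGCC and HTR2C lie near 0 on the y axis.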

How the data were processed

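The values are probe set intensities on a linear scale as deposited by the authors; the method of summary and scaling (not given in the sources used here) stays unknown. The table of 54675 probe sets on 24 arrays had 0 missing values and 0 identical arrays. Of the probe sets 41097 named 1 gene, 1801 several (not used) and 11777 none. For each of 19775 genes the probe set of highest mean log2 value was kept.

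Intensities were turned into log2(intensity + 16). The filter asked for values over an array's median on 3 or more of the 12 arrays, separately for each line, and 12305 genes passed in both. The line difference and both responses came from limma 3.58.1 in R 4.3.3, in one fit of the 8 groups over all 24 arrays for the difference and one fit per line for the responses, with two-sided moderated tests and Benjamini-Hochberg adjustment over all genes tested. The number of arrays limits the precision, and p-values measure the spread between the arrays of a group. The fit was tested on simulated data.

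Named genes are the 12 highest and 12 lowest differences, the 12 opposite genes per direction with the largest smaller response, the 6 per line and direction with a response under 0.2 in the other line, up to 3 per list and direction with the smallest adjusted p, and ERG, ETV1, TMPRSS2, KLK2, KLK3, FKBP5 and MYC, and the text names part of these. Other list members named in the text, such as ATF4, FASN, HSPA5, FOXA1, AZGP1, IRS1 and IFIH1, were chosen after their values were seen. The members and the lists were chosen with earlier results of these data known. Replicate letters did not pair the arrays: deviations of arrays with the same letter correlated from -0.22 to 0.12 over 36 pairs (median -0.01), with 4 above 0.1. Alternatives covered the pseudocount, the filter, scaling, probe set choice, variance settings, RNA quality covariates, left-out arrays and the replicate letter as a block. RefSeq promoters were matched by symbol for 10018 of the genes tested.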

Additional observations from a re-analysis of the deposited data

Results flagged for a closer look

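The tests of the difference itself separated the LNCaP and VCaP responses to DHT for 3929 genes, and 441 genes had opposite called responses in the 2 lines. Among those with the largest opposite responses, the LNCaP response minus the VCaP response was 3.09 for ZNF385B, 2.43 for SLC4A4, 3.79 for PTGER4, 2.42 for CSRP2, 3.47 for IRS2 and 1.97 for FAM111B. In the reverse direction it was -2.14 for ST3GAL1, -2.02 for KCNG1, -1.77 for RGCC, -1.82 for UGT2B28, -1.94 for ITPR1 and -1.63 for FAM86B2-DT. In the shETV1 LNCaP and siERG VCaP arrays RGCC was at -0.24 (limma adjusted p = 0.504) and the other 11 were called with the same sign. Among LNCaP control arrays, CSRP2 could pass the filter only under DHT and RGCC only under EtOH, where each was higher.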

How the results depend on the processing

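Requiring at least 1 log2 unit left 381 line differences, 449 LNCaP responses, 318 VCaP responses, 391 differences in the knockdown cells, 4 opposite genes and likewise 4 of those with 0.5 in both lines. An adjusted p below 0.01 left 229 opposite genes. A pseudocount of 64 left 31 opposite genes with 0.5 in both lines, where the compression of dim values lies in the pseudocount itself. With the GAPDH 3' to 5' ratio as a covariate 2457 differences were called in the knockdown cells; the cause was not tested. Under the other settings, left-out arrays aside, each count stayed within 1.5 times: 2678 to 4346 line differences, 3842 to 5443 LNCaP responses, 3955 to 6037 VCaP responses, 2650 to 4616 knockdown differences, 321 to 512 opposite genes and 36 to 54 of the larger ones. The opposite genes themselves changed more than their count. Of the 243 up in LNCaP and the 198 down in LNCaP, averaging all probe sets kept 153 and 107. With the GAPDH ratio as a covariate 158 and 137 were kept, with the ACTB ratio 175 and 149, and without the filter 175 and 139. Of the 32 and 16 larger ones, averaging kept 29 and 14. Leaving out 1 array gave 3564 (without VCaP control DHT C) to 4235 line differences, 4653 to 5234 LNCaP responses, 4724 to 5913 VCaP responses, 3497 to 4089 knockdown differences, 376 to 494 opposite genes and 45 to 51 larger ones. With the replicate letter as a block, which does not pair these arrays, the counts were 3752 line differences, 5046 LNCaP responses, 5275 VCaP responses, 3689 knockdown differences, 402 opposite genes and 45 larger ones. The balance of directions followed the scaling: 55.1% of line differences lay above 0 as reported, 44.5% after quantile normalization within each line, 44.6% after it over all arrays (1931 above and 2402 below) and 57.8% after centring arrays. For opposite genes the split was 213 and 294 after quantile normalization over all arrays. All 48 larger ones stayed opposite, while 44 opposite genes reached 0.5 in both lines under that setting. The median difference of the cholesterol list turned from near 0 to -0.04 and that of the insulin and IGF list to -0.02 after quantile normalization within each line, and that of the steroid receptor list reached 0 after centring. The ACTB ratio as a covariate, added after seeing the data, gave 3468 line differences and 42 opposite genes with 0.5 in both lines. Of 161 named genes 160 passed the test of the line difference, and over 6543 alternative values 48 lost that call, in 20 genes, with POLE (12), ETS1 (6) and PABPC5 (6) the most frequent. Of 79 named genes with over 1 probe set above the filter, 75 had probe sets of one sign, the exceptions being ERBB3, ERN1, SPDEF and WNK3.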

Other observations

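Genes above the filter in one line only were outside the comparison of responses, and several passed through the treatment in which they are high. A pair of genes whose 6 VCaP control arrays all lay above the array medians is given here, chosen after their values were seen. SHH, the sonic hedgehog ligand, read 701, 664 and 673 in VCaP DHT arrays and 3243, 3132 and 2889.8 in VCaP EtOH arrays, and fell by 2.16 ± 0.07 (SE). NBL1, a secreted antagonist of bone morphogenetic proteins, read 174, 167 and 191 in VCaP DHT arrays and 60.2, 54.1 and 60.05 in VCaP EtOH arrays, a rise of 1.38 ± 0.08 (SE). In LNCaP control arrays SHH read from 13.7 to 40.4 and NBL1 from 3.2 to 12.8, below the filter.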
